A study of Mus musculus with 12 samples.

Results

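The genes described here are 38 genes that mark the mature B cell, chosen by name and looked up by gene symbol in the annotation of an Affymetrix mouse array. Of the 38, 36 were represented by a probe set with a single gene symbol, 63 probe sets in all, out of 34945 probe sets with a single symbol. Cd38 and Fcrl5 were not analysed here. A gene with several probe sets is represented by the probe set with the highest mean signal over the 12 arrays, and in all 36 genes that probe set passed the filter for low values. Total RNA came from the spleens of 12 BALB/c mice on 1 array each. Wild-type mice (wt) and Il1rn-deficient mice (ko) were taken at the ages of 1 month and 4 months, 3 mice of each genotype at each age. Il1rn is the gene of the IL-1 receptor antagonist, a secreted blocker of the IL-1 receptor, and its loss on this strain is known for spontaneous joint disease. The study set out to find genes tied to one phase of that disease, so genotypes were compared within an age and ages within a genotype. The sources used here do not say how the allele was made or whether its loss is restricted to a cell type.

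A mature B cell carries surface immunoglobulin that signals through the Cd79a and Cd79b chains to kinases and adaptors such as Btk and Blnk. Its identity is held by transcription factors such as Pax5 and Ebf1, and its survival by the cytokine BAFF acting on the receptor encoded by Tnfrsf13c. In the spleen most mature B cells recirculate through follicles, a smaller population sits in the marginal zone facing the blood, and activated B cells form germinal centres inside follicles. The 38 genes were ordered here by these roles. Each value below is the scaled signal of a probe set on a linear scale, or a log2 difference between group means on the log2(signal + 32) scale, which understates changes of dim probe sets. In a whole organ, fewer cells of a type and less RNA per cell cannot be told apart.

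Promoters of the members are shown first, for letters that B cell factors among the members are known to bind. Of the 38 genes, 30 had a promoter in the RefSeq table of build GRCm38.p6, from 250 bases before to 50 bases after a start site. The octamer ATGCAAAT, known for Oct-2 (Pou2f2) and its coactivator (Pou2af1), was present on either strand in the promoters of 2 of these 30 genes, Blnk and Cnr2, which is 5.26% of their 38 promoters, against 1.74% of all 32817 promoters in the table. The letters GAGGAA, the core of a site for Spi-B (Spib) or its relative PU.1, were present in 36.8% of the 38 promoters of these genes, for 14 of the 30 genes, and in 28.3% of all promoters. A motif known for Ebf1, TCCC and GGGA with any 2 bases between them, was found for Cd22 alone among the 30 genes, 2.63% of their promoters, and in 0.905% of all promoters. A match is a description of the sequence and not a site shown to be bound. The promoters with the octamer or the Ebf1 letters are printed whole, with Fcrla as an example for the Spi-B core, from the gene's own strand, 5′ to 3′, with the matching letters in capitals. Blnk lies at chr19:40994172-40994471 on the minus strand, with the octamer on the opposite strand of the gene and its first printed base 130 bases before the start. The first of the promoters listed for Cnr2 lies at chr4:135894939-135895238 on the plus strand, with the octamer also on the opposite strand and 48 bases before the start. Cd22 lies at chr7:30878979-30879278 on the minus strand, with the Ebf1 letters 49 bases before the start. Fcrla lies at chr1:170927534-170927833 on the minus strand, with the Spi-B core on the opposite strand and 37 bases before the start.
Blnk: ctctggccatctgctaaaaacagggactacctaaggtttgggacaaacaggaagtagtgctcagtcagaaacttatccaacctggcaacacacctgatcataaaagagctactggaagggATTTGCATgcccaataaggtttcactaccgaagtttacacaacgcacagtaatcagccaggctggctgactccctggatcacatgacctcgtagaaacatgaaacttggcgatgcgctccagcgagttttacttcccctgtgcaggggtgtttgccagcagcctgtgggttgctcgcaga
Cnr2: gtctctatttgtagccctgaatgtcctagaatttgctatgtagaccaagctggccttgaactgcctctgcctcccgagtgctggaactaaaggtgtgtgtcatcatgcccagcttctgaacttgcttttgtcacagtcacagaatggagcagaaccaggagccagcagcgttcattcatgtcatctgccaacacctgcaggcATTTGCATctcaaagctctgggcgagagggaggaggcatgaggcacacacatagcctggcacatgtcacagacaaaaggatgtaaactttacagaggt
Cd22: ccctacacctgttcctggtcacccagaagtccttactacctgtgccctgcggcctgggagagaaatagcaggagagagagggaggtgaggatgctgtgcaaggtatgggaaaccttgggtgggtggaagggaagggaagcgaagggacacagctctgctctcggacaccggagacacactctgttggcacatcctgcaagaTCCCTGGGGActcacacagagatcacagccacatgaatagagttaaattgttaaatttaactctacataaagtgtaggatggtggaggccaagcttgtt
Fcrla: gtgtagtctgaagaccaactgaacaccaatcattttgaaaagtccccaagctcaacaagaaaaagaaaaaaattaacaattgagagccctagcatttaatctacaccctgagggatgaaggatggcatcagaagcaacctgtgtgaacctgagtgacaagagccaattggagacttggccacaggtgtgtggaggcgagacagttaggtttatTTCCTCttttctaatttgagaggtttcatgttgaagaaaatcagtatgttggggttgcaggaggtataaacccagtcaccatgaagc

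The labels were checked on Il1rn, for which 1 of 3 probe sets was called lower in ko at both ages, with wt arrays at 120 to 163 and ko arrays at 5.64 to 40.6 at 1 month, and 161 to 278 against 10.1 to 40.8 at 4 months. The highest deposited signal was under 45000 in 6 arrays (the low set) and above it in the other 6 (the high set). The 1-month ko arrays were low-set arrays without exception, and each other group had arrays of both sets. Median signal was 113 to 148 per array, and 52.1 to 59.2% of probe sets reached 100. Transcripts of the pancreas were far higher in wt at 4 months replicate 2, where 3 pancreas genes summed to 66266, against 1140.2 to 2441 in the other 11 arrays. The mean level of the B cell genes in that array did not stand apart, at 0.52 against 0.53 and 0.38 in the other wt arrays of that age.

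Of the 36 genes, 27 rose from 1 to 4 months in each genotype, and 18 were lower in ko than in wt when both ages were combined. Of all 12326 genes tested, 12.6% rose in wt, 15.7% rose in ko and 2.45% were lower in ko over both ages. The mean of the 36 genes, as the log2 signal minus its mean over 12 arrays, was -0.13 ± 0.07 (SD, n = 3) for wt against -0.56 ± 0.11 for ko at 1 month, then 0.48 ± 0.08 against 0.22 ± 0.11 at 4 months. By array it was -0.20, -0.07 and -0.14 for wt against -0.50, -0.49 and -0.69 for ko at 1 month, then 0.53, 0.52 and 0.38 against 0.34, 0.14 and 0.17 at 4 months. The 4 groups did not overlap on this mean, in the order ko at 1 month, wt at 1 month, ko at 4 months and wt at 4 months. The genes were chosen with earlier results of these data known, so this mean is a description and carries no test. The array plot of this mean and the map of all 36 genes by array show the same order.

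**Figure D1:**
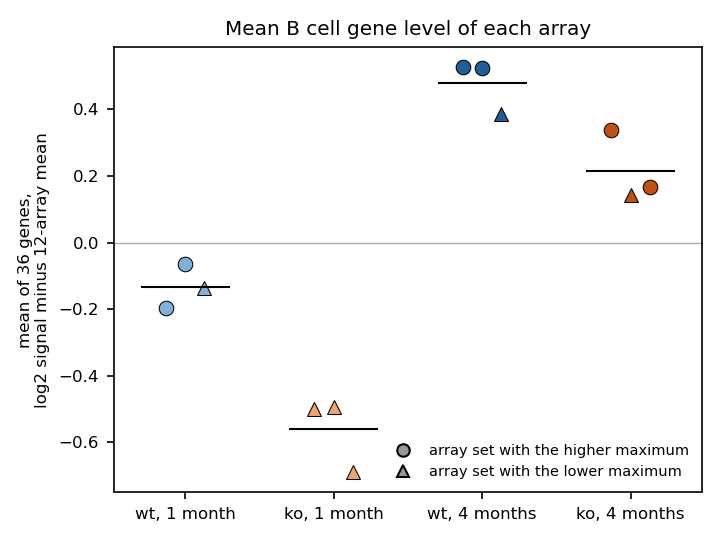
The mean of 36 B cell genes on each of the 12 arrays (vertical axis, log2 signal minus the mean over 12 arrays), by group, with bars at group means and symbols for the array set. The ko arrays sit at -0.69 to -0.49 at 1 month and the wt arrays of that age at -0.20 to -0.07, and at 4 months ko arrays sit at 0.14 to 0.34 and wt arrays at 0.38 to 0.53.

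**Figure D2:**
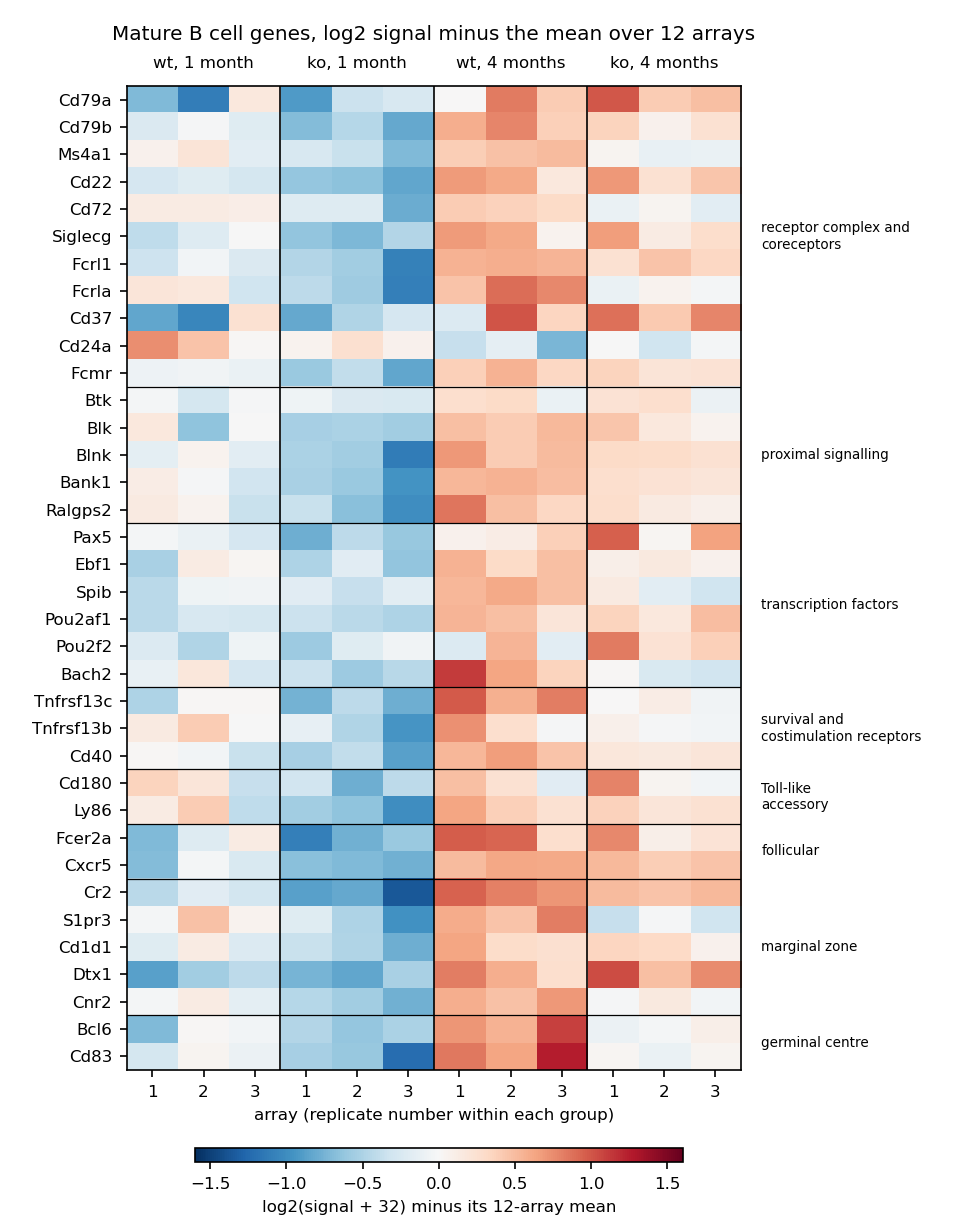
The 36 genes (rows, by role) on the 12 arrays (columns, by group and replicate), coloured by log2(signal + 32) minus the gene's mean over 12 arrays. In most rows the ko arrays at 1 month are blue and the wt arrays at 4 months red, with the other groups between them, while Cd24a is blue in wt at 4 months.

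At 1 month, 34 of 36 genes had a log2 difference below 0 in ko against wt, as had 52.3% of the 12326 genes tested. The median was -0.47 beside -0.02 over all genes tested. A gene is called here at a limma adjusted p under 0.05 over all 27041 probe sets tested. By that rule 1 of the 36 was called lower (Cr2) and 0 higher, where 0.252% of all genes tested were called lower and 0.365% higher. In 20 of the 36 the 3 ko arrays all lay below the 3 wt arrays, as in 11.7% of all genes, and in 0 above, as in 8.97%. At unadjusted p under 0.05, 25 were lower, and the share of all genes at that threshold was not computed. Without wt replicate 3, the wt array of the low set, 11 of 36 were called lower. In that fit 345 of all 12326 genes were called lower and 435 higher, against 31 and 45 in the full fit. Leaving out any of the 3 ko arrays of this age, wt replicate 1 or wt replicate 2, any of the 3 ko arrays at 4 months or wt replicate 2 at 4 months (which enter the estimate of the spread), or adding a block for the array set, left 0 called. The low set alone holds 3 ko arrays and that wt array of this age, and there 35 of 36 lay below 0 with a median of -0.45.

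At 4 months, 29 of 36 genes lay below 0, as did 47.6% of all genes tested, with a median of -0.28 beside 0.02 over all genes tested. Called lower were 6 of 36 (Cd83, Bach2, S1pr3, Bcl6, Tnfrsf13c and Spib) and 0 were called higher, where 0.479% of all genes were called lower and 2.48% higher. In 18 of the 36 the ko arrays all lay below the wt arrays, as in 10.5% of all genes, and 13.3% of all genes lay above without overlap. Leaving out ko replicate 1 gave 2 calls, ko replicate 2 gave 1, ko replicate 3 gave 0, and wt replicate 1 or wt replicate 3 gave 1 each. Without wt replicate 2, the array with pancreas transcripts, 5 of the 6 genes kept the call. Over all genes, 59 were called lower in the full fit. Without ko replicate 1, 2 or 3 this was 28, 26 or 15, and without wt replicate 1, 2 or 3 it was 28, 92 or 24. Of the 6 genes, 0 kept the call in all 12 fits that each left out 1 array. The low set alone, with 1 array of each genotype, had a median of -0.21, and in the high set alone, with 2 of each, it was -0.30, with 0 called in either. A block for the array set gave 9 calls, where 82 of all 12326 genes were called lower and 389 higher.

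Over both ages, 18 of 36 genes were called lower in ko and 0 higher, where 2.45% and 3.89% of all genes were called, with a median of -0.39 where the median of all genes was close to 0. The count was 8 to 18 as each array was left out in turn, and 13 with that block. It fell furthest without ko at 4 months replicate 3 (8), ko at 1 month replicate 3 or wt at 1 month replicate 2 (9 each), and ko at 4 months replicate 2 or wt at 4 months replicate 1 (10 each), and it was 12 without ko at 4 months replicate 1. Over all 12326 genes, 74 to 560 were called lower as each array was left out, and 192 with the array set block. Of the 18 genes, 8 kept their call whichever array was left out (Bach2, Cd83, Cnr2, Cr2, Fcrla, Ms4a1, S1pr3 and Tnfrsf13c), and the other 10 lost it in 2 to 11 of the 12 fits. A change of the ko-to-wt difference with age was called in 0 of the 36 genes by limma, where 5 of 12326 genes were called higher (0.0406%) and 2 lower (0.0162%). At unadjusted p under 0.05 it was higher in 3 and lower in 1 of the 36, again with no share of all genes computed.

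**Figure D3:**
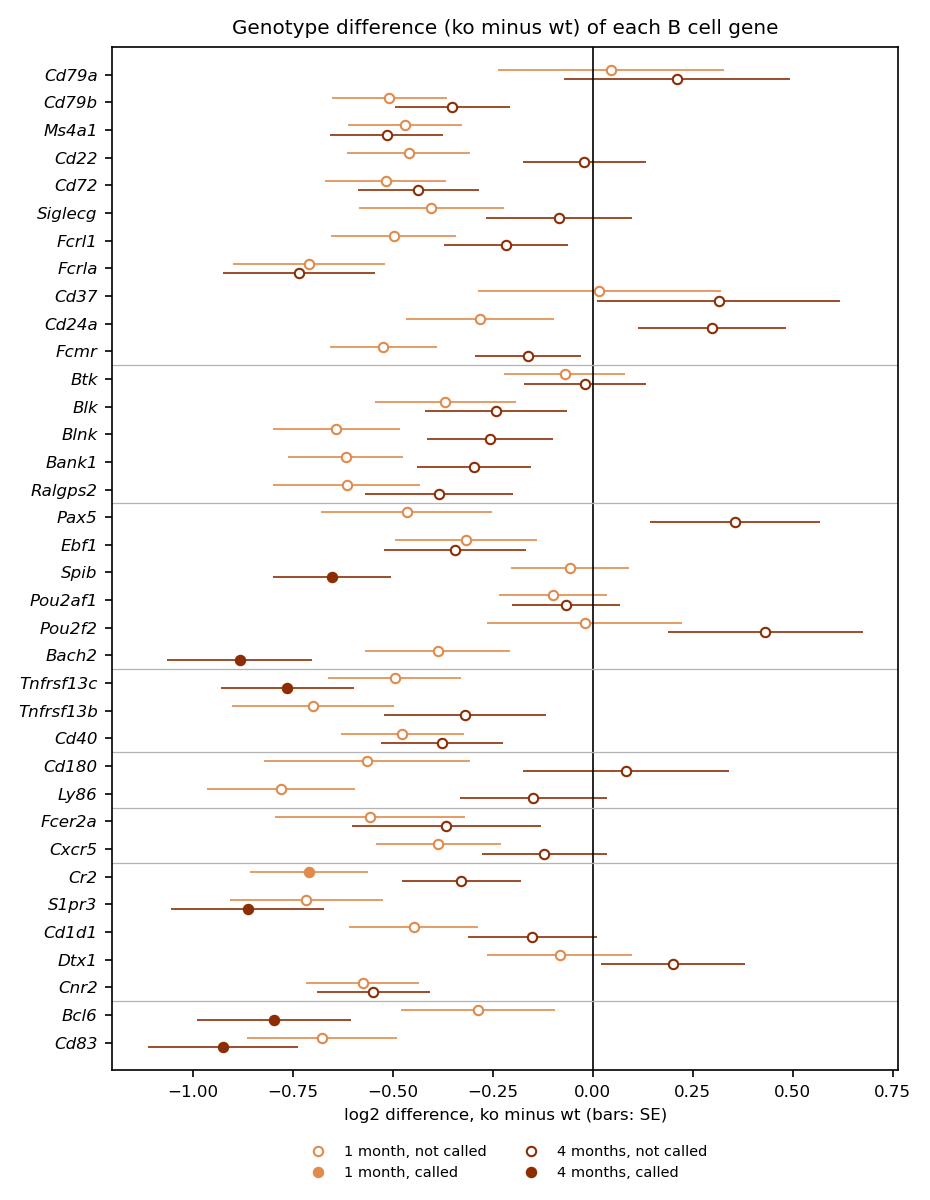
The log2 difference between ko and wt (horizontal axis, bars are SE) for each of 36 genes at 1 month and at 4 months, with filled points for called genes. At 1 month 34 points lie left of 0 and Cr2 is filled, and at 4 months 29 lie left of 0 and 6 are filled.

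The germinal centre genes Bcl6 and Cd83 were both called lower in ko at 4 months. Bcl6, a repressor that B cells need to form germinal centres, read 442, 752 and 719.6 in wt against 527, 474 and 511 in ko at 1 month, then 1233, 1109 and 1623 against 691, 728 and 796 at 4 months. The ko arrays at 4 months all lay below the wt arrays of that age, while at 1 month the groups overlapped. Its log2 difference was -0.80 (SE 0.19, adjusted p = 0.0389 by limma) at 4 months and -0.29 (SE 0.19, adjusted p = 0.479 by limma) at 1 month. The 4-month call was lost in 7 of the 12 fits that left out an array. Cd83, a surface protein of activated B cells and of the germinal centre light zone that dendritic cells also carry, read 2226, 2806 and 2543 in wt against 1869, 1765 and 1151 in ko at 1 month, then 4885, 4217 and 6521 against 2762, 2513 and 2786 at 4 months. All ko arrays were lower than the wt arrays of their age, with -0.92 (SE 0.19, adjusted p = 0.0159 by limma) at 4 months and -0.68 (SE 0.19, adjusted p = 0.117 by limma) at 1 month. Among 10 other germinal centre genes measured, 0 were called at either age, with medians of -0.12 and -0.26. Ezh2, a histone methyltransferase of dividing germinal centre and progenitor cells, was the 1 of these 10 called over both ages, higher in ko (0.47, SE 0.11).

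**Figure D4:**
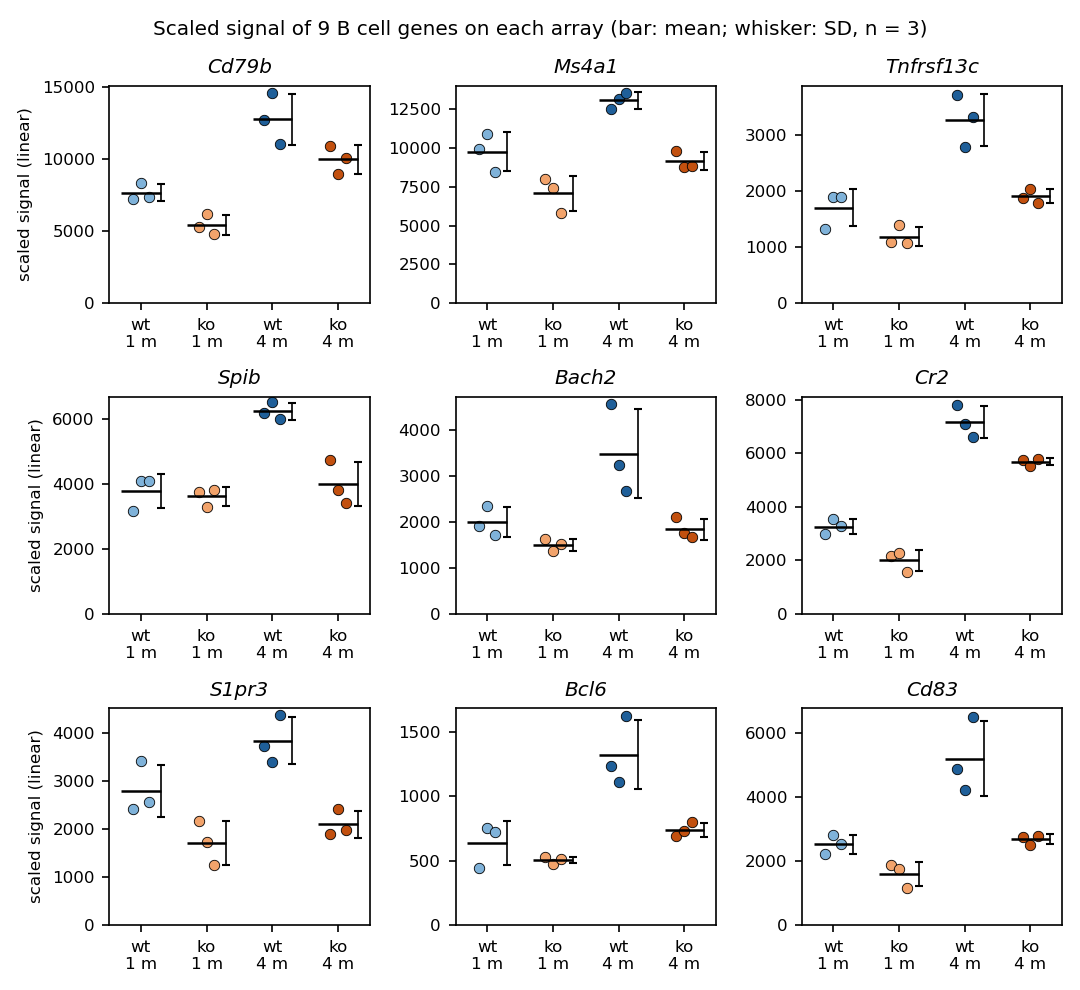
Scaled signal (vertical axis, linear, from 0) of 9 B cell genes on each array by group, with bars for means and whiskers for SD (n = 3). In Spib, Bach2, Tnfrsf13c, S1pr3, Bcl6 and Cd83 the 3 ko arrays at 4 months lie below the 3 wt arrays of that age, and in Cr2 the ko arrays lie below wt at both ages.

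Of the 6 transcription factors, Spib and Bach2 were called lower in ko at 4 months and the others were not called in ko against wt at either age. Spib, an Ets factor of mature B cells and plasmacytoid dendritic cells, read 3165, 4077 and 4103 in wt against 3752, 3289.7 and 3812 in ko at 1 month, then 6190.2, 6508 and 6001 against 4733, 3808 and 3421 at 4 months. The ko arrays at 4 months were all below the wt arrays, and those at 1 month were mixed with wt. Its difference was -0.65 (SE 0.15, adjusted p = 0.028 by limma) at 4 months and -0.06 (SE 0.15) at 1 month. Bach2, a repressor that holds back the plasma cell programme and also acts in T cells, read 1912, 2344 and 1714 in wt against 1623, 1369 and 1521 in ko at 1 month, then 4551, 3228 and 2669 against 2095, 1750.3 and 1667 at 4 months. Its ko arrays were lower than wt at both ages, with -0.88 (SE 0.18, adjusted p = 0.0176 by limma) at 4 months and -0.39 (SE 0.18, adjusted p = 0.313 by limma) at 1 month, and wt replicate 1 at 4 months was the highest array. Without that array the 4-month difference was -0.67 and no longer called (adjusted p = 0.0789 by limma).

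Pax5, which commits cells to the B lineage, read 366, 345 and 305 in wt against 204, 273 and 235 in ko at 1 month, then 394, 408 and 496 against 756, 384 and 601 at 4 months. At 1 month ko arrays were below wt, and at 4 months ko replicates 1 and 3 were above all wt arrays and replicate 2 below them. The difference was -0.47 (SE 0.21, adjusted p = 0.303 by limma) at 1 month and 0.36 (SE 0.21, adjusted p = 0.443 by limma) at 4 months, and the change of that difference between ages was 0.82 (SE 0.30, adjusted p = 0.454 by limma), not called. Ebf1, which acts with Pax5, read 632, 1008 and 946 in wt against 642, 811 and 583 in ko at 1 month, then 1371, 1147 and 1303 against 986, 1031 and 964 at 4 months. The groups overlapped at 1 month, and at 4 months ko arrays lay below wt without a call, at -0.35 (SE 0.18, adjusted p = 0.361 by limma). Pou2af1, the octamer coactivator, read 4606, 5221 and 5115 in wt against 4922, 4612 and 4409 in ko at 1 month, then 9070.2, 8753 and 7144 against 8010.3, 7006 and 8785 at 4 months. Its genotype groups overlapped at both ages, with -0.10 (SE 0.13) and -0.07 (SE 0.13). Pou2f2 (Oct-2) was dim, with 208, 168 and 234 in wt against 155, 212 and 238 in ko at 1 month, then 208, 374 and 217 against 466, 295 and 332 at 4 months, and its groups overlapped at both ages.

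The 3 receptors for BAFF or for help from T cells were called lower in ko over both ages. Tnfrsf13c kept that call in all 12 fits that each left out 1 array, Tnfrsf13b lost it in 9 (adjusted p up to 0.14 by limma) and Cd40 in 8 (up to 0.102). Tnfrsf13c, the BAFF receptor, read 1315, 1891 and 1888 in wt against 1094, 1387 and 1079.7 in ko at 1 month, then 3712, 2781 and 3319 against 1878, 2039 and 1794 at 4 months. At 4 months every ko array was below every wt array, while at 1 month ko replicate 2 overlapped wt replicate 1. The difference was -0.76 (SE 0.17, adjusted p = 0.0238 by limma) at 4 months, -0.50 (SE 0.17, adjusted p = 0.181 by limma) at 1 month and -0.63 (SE 0.12, adjusted p = 0.0084 by limma) over both ages. Tnfrsf13b (TACI), a second receptor for BAFF and its relative APRIL, read 3049, 3640.2 and 2745 in wt against 2503, 1967 and 1417 in ko at 1 month, then 4566, 3324 and 2708 against 2908, 2719.7 and 2656 at 4 months. At 1 month ko arrays were all below wt and at 4 months the groups overlapped, with -0.70 (SE 0.20, adjusted p = 0.129 by limma) and -0.32 (SE 0.20, adjusted p = 0.471 by limma). Over both ages the difference was -0.51 (SE 0.14, adjusted p = 0.0496 by limma), and its change with age was not called, at 0.38. Cd40, which receives T cell help, read 1299.6, 1235 and 995 in wt against 872, 964 and 683 in ko at 1 month, then 1864, 2044 and 1757 against 1449.6, 1422 and 1463 at 4 months. In Cd40 no ko array reached the wt arrays of its age, with -0.43 (SE 0.11, adjusted p = 0.0342 by limma) over both ages. Of 7 other measured genes of the BAFF and CD40 pathways, among them the BAFF gene Tnfsf13b, 0 were called by genotype at either age or over both, with medians of -0.16 and -0.12 at 1 and 4 months.

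Among the marginal zone genes, 5 of 6 were measured, with 1 called lower in ko at 1 month, 1 at 4 months and 3 for the ages combined. Cr2 (complement receptor 2, CD21), high on marginal zone B cells and on follicular dendritic cells, read 2973, 3544 and 3279 in wt against 2185, 2275 and 1558 in ko at 1 month, then 7797, 7084 and 6614 against 5740.0, 5543 and 5785 at 4 months. All ko arrays were lower than the wt arrays of their age. The difference was -0.71 (SE 0.15, adjusted p = 0.045 by limma) at 1 month, -0.33 (SE 0.15, adjusted p = 0.289 by limma) at 4 months and -0.52 (SE 0.10, adjusted p = 0.0124 by limma) for the ages combined. The 1-month call was kept in 3 of 12 fits that each left out 1 array (largest limma adjusted p 0.264, without ko replicate 3) and was lost with the array set as a block, at -0.66 (adjusted p = 0.189 by limma). S1pr3, a sphingosine-1-phosphate receptor of marginal zone B cells and endothelium, read 2405, 3404 and 2559 in wt against 2151, 1729 and 1240.4 in ko at 1 month, then 3729.9, 3392 and 4354 against 1888, 2421 and 1967 at 4 months. Its ko arrays were below wt at both ages, with -0.72 (SE 0.19, adjusted p = 0.106 by limma) at 1 month, -0.86 (SE 0.19, adjusted p = 0.0256 by limma) at 4 months and -0.79 (SE 0.14, adjusted p = 0.00483 by limma) over both ages. Of 8 endothelial markers, 1 was called lower at 1 month (Cldn5, -0.75, with a median of -0.35 for the list) and 0 at 4 months (median 0.06). Their summed signal at 4 months was 9405 to 10618 in wt and 10599 to 11356 in ko, and their part in the S1pr3 values was not tested.

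Cnr2, a cannabinoid receptor of B cells and one of the genes with an octamer above, read 1214, 1370.1 and 1120.3 in wt against 901, 841 and 716 in ko at 1 month, then 1877, 1737 and 2038 against 1232, 1395 and 1208 at 4 months. Every ko array was below every wt array at both ages, and the difference over both ages was -0.56 (SE 0.10, adjusted p = 0.006 by limma). Cd1d1, which presents lipids to natural killer T cells, read 1423, 1795 and 1401 in wt against 1269, 1161 and 936 in ko at 1 month, then 2564, 2006 and 1968 against 2089, 2047 and 1720.1 at 4 months. Its ko arrays were below wt at 1 month and mixed with them at 4 months, with -0.30 (SE 0.11, adjusted p = 0.13 by limma) over both ages. Dtx1, a target of Notch signalling in marginal zone B cells, read 1007, 1263 and 1386 in wt against 1102, 1033 and 1296 in ko at 1 month, then 3337, 2824 and 2262 against 3885, 2625 and 3187 at 4 months. Its groups overlapped at both ages, at -0.08 (SE 0.18) and then 0.20 (SE 0.18). Among 12 other genes of follicular and marginal zone biology, 3 were called lower over both ages. They were Cxcl13, the chemokine that draws B cells into follicles (-0.57, SE 0.12), Mzb1, a chaperone of marginal zone B cells and plasma cells (-0.43, SE 0.11), and S1pr1, a receptor for lymphocyte egress (-0.47, SE 0.13).

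The follicular genes were not called in any comparison of ko with wt. Fcer2a (CD23), the low-affinity IgE receptor of follicular B cells, read 1458, 2083 and 2644 in wt against 1107, 1401 and 1589.8 in ko at 1 month, then 4728, 4618 and 2909 against 4115, 2563 and 2796 at 4 months. Its groups overlapped at both ages, with -0.56 (SE 0.24, adjusted p = 0.272 by limma) at 1 month and -0.37 (SE 0.24, adjusted p = 0.48 by limma) at 4 months. Cxcr5, the receptor for Cxcl13, read 813, 1311 and 1121 in wt against 834, 811 and 772 in ko at 1 month, then 1917, 2072 and 2064 against 1930.3, 1773 and 1853 at 4 months. Its groups also overlapped at both ages, with -0.39 (SE 0.16, adjusted p = 0.247 by limma) and -0.12 (SE 0.16, adjusted p = 0.762 by limma).

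In the receptor complex and its coreceptors, 5 of 11 genes were called lower in ko over both ages and 0 at either age alone. Cd79b (Ig-beta) read 7258, 8377 and 7405 in wt against 5261, 6161 and 4799 in ko at 1 month, then 12718, 14600.4 and 11031 against 10922, 8951 and 10087 at 4 months. All ko arrays were lower than the wt arrays of their age, with -0.43 (SE 0.10, adjusted p = 0.0265 by limma) over both ages, a call lost in 5 of the 12 fits that left out an array. Its partner Cd79a (Ig-alpha) read 3224, 2428 and 5942 in wt against 2799, 4139 and 4420.1 in ko at 1 month, then 5296, 9422 and 6997 against 10484, 7001 and 7383 at 4 months. The groups overlapped at both ages, wt at 1 month spread from 2428 to 5942, and the differences were 0.05 (SE 0.28) and 0.21 (SE 0.28). Ms4a1 (CD20) read 9929, 10927 and 8472 in wt against 7979, 7407 and 5834 in ko at 1 month, then 12496, 13198 and 13557 against 9833, 8779.5 and 8840.1 at 4 months. Every ko array was below every wt array of its age, with -0.47 (SE 0.14, adjusted p = 0.141 by limma) at 1 month, -0.52 (SE 0.14, adjusted p = 0.0737 by limma) at 4 months and -0.49 (SE 0.10, adjusted p = 0.0131 by limma) over both ages.

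Fcrla, an Fc receptor-like protein inside the B cell, had the largest difference over both ages in this group, at -0.72 (SE 0.13, adjusted p = 0.00816 by limma). Its arrays read 1574, 1549 and 1089 in wt against 1021, 909.9 and 624 in ko at 1 month, then 1893, 2585 and 2355 against 1269.6, 1432 and 1337 at 4 months, with no overlap at either age. Cd72, an inhibitory coreceptor, read 3919, 3921 and 3857 in wt against 3116, 3119 and 2057 in ko at 1 month, then 4787, 4626 and 4428 against 3323, 3697 and 3201 at 4 months. Its ko arrays lay below wt at both ages, with -0.48 (SE 0.11, adjusted p = 0.0205 by limma) over both ages, a call lost in 2 of the 12 fits that left out an array. Fcmr, the IgM Fc receptor, read 5902, 6016 and 5786 in wt against 4132, 4768 and 3489 in ko at 1 month, then 8178, 9252 and 7894 against 8046, 7229 and 7326 at 4 months. Its ko arrays were clear of wt at 1 month, and ko replicate 1 overlapped wt at 4 months, with -0.34 (SE 0.09, adjusted p = 0.0458 by limma) over both ages, a call lost in 10 of the 12 fits that left out an array (adjusted p up to 0.135 by limma). The inhibitory receptor Cd22 read 5092, 5372 and 5047 in wt against 3978, 3869 and 3426 in ko at 1 month, then 9844, 9369 and 6904 against 9966, 7284 and 8384 at 4 months. At 1 month ko arrays were all below wt and at 4 months the genotypes overlapped, with -0.46 (SE 0.15) and -0.02 (SE 0.15), neither called. Siglecg, its relative, read 1851, 2137 and 2457 in wt against 1573, 1483 and 1773 in ko at 1 month, then 3951, 3756 and 2571 against 3941, 2704 and 2999 at 4 months. It had the same layout, below wt at 1 month and overlapping at 4 months, with -0.40 (SE 0.18) and -0.08 (SE 0.18). Fcrl1 read 1849, 2252 and 1978 in wt against 1678, 1570.5 and 1088 in ko at 1 month, then 3449, 3501 and 3403 against 2774, 3207 and 2929.5 at 4 months. No ko array reached the wt arrays of its age, with -0.36 (SE 0.11, adjusted p = 0.0693 by limma) over both ages.

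The tetraspanin gene Cd37, like Cd79a, lay above 0 at both ages, and Cd24a (heat-stable antigen) changed sign between them. Cd37 read 2005, 1726 and 4228 in wt against 2010.3, 2555 and 2957 in ko at 1 month, then 3068, 7203 and 4565 against 6603, 4805 and 6149.6 at 4 months. Its genotype groups overlapped at both ages, and replicate 3 of wt at 1 month lay above the other wt arrays of that age, as it did for Cd79a. A second probe set of Cd37 gave -0.45 (SE 0.09, adjusted p = 0.0147 by limma) over both ages where the one used gave 0.17 (SE 0.21, adjusted p = 0.697 by limma), so the direction for Cd37 rests on the probe set. Cd24a, which red cell precursors also carry, read 47982, 39316 and 28921 in wt against 29666, 34085 and 30024 in ko at 1 month, then 22076, 25842 and 17131 against 28457, 22943 and 27859 at 4 months. The genotypes overlapped at both ages, at -0.28 (SE 0.19) and then 0.30 (SE 0.19). All ko arrays at 1 month were of the low set, and replicate 3 was the only such wt array of that age. Against that wt array alone, the ko arrays lay below it for Cd37 and Cd79a and above it for Cd24a. The 1-month signs of these genes thus depend on the wt arrays compared. The highest signal on the ko arrays of that age was 34081 to 37921, and its bearing on Cd24a was not tested.

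Of the 5 signalling genes, Blnk, Bank1 and Ralgps2 were called lower in ko over both ages and Blk and Btk were not. Blnk, the adaptor that links the receptor to Btk, read 4843, 5640.4 and 4812 in wt against 3796, 3674 and 2461 in ko at 1 month, then 8768, 7186 and 7680.2 against 6691, 6630.0 and 6391 at 4 months. Its ko arrays lay below wt at both ages, with -0.64 (SE 0.16, adjusted p = 0.0834 by limma) at 1 month and -0.45 (SE 0.11, adjusted p = 0.0324 by limma) over both ages. Bank1, a scaffold of receptor signalling, read 6355, 5778 and 4738 in wt against 4076, 3884 and 3013 in ko at 1 month, then 8495, 8659 and 8235 against 7072, 6878 and 6706 at 4 months. Its arrays did not overlap at either age, with -0.62 (SE 0.14, adjusted p = 0.0687 by limma) at 1 month and -0.46 (SE 0.10, adjusted p = 0.0185 by limma) over both ages. Ralgps2, an exchange factor for Ral, read 2026, 1905 and 1424 in wt against 1427, 1144 and 909 in ko at 1 month, then 3345, 2572 and 2318 against 2242, 2039 and 1939.7 at 4 months. The ko arrays were clear of wt at 4 months, and at 1 month ko replicate 1 overlapped wt, with -0.50 (SE 0.13, adjusted p = 0.0379 by limma) over both ages. The calls over both ages were lost in 6 of the 12 fits that left out an array for Blnk, 3 for Bank1 and 8 for Ralgps2. Blk, a Src family kinase, read 3021, 1699.9 and 2673 in wt against 1844, 1885 and 1818 in ko at 1 month, then 3759, 3557 and 3851 against 3668, 3022 and 2797 at 4 months. Its groups overlapped at both ages. Btk lay between 1490 and 2257 on all 12 arrays, with -0.07 (SE 0.15) and -0.02 (SE 0.15), and its highest array over its lowest, 1.51, was the smallest such ratio of the 36 genes. Of 27 other genes of receptor signalling 0 were called at either age, and over both ages Malt1, a protease on the path to NF-kB, was lower (-0.52, SE 0.14) and the kinase gene Akt1 higher (0.51, SE 0.14).

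Cd180 and Ly86 encode a Toll-like receptor relative and the partner that carries it to the B cell surface. Ly86 read 5584, 6791 and 3843 in wt against 3440.5, 3258 and 2544 in ko at 1 month, then 7891, 6623 and 6041 against 6569.8, 5825 and 6053 at 4 months. Its ko arrays were below wt at 1 month and overlapped wt at 4 months, with -0.78 (SE 0.18, adjusted p = 0.0786 by limma) and -0.15 (SE 0.18), and -0.46 (SE 0.13, adjusted p = 0.0493 by limma) over both ages. That call was lost in 11 of the 12 fits that left out an array, with an adjusted p up to 0.144 by limma. Cd180 read 414, 366 and 239 in wt against 249.8, 170.2 and 229 in ko at 1 month, then 455, 381 and 276 against 573, 327 and 307 at 4 months. Its groups overlapped at both ages, with -0.56 (SE 0.26) and 0.08 (SE 0.26).

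With age, 27 of 36 genes rose from 1 to 4 months in wt and 1 fell (Cd24a), and 27 rose and 0 fell in ko. Among all genes tested 12.6% rose and 11.5% fell in wt, and 15.7% rose and 10.9% fell in ko. The median log2 difference of the members was 0.64 in wt and 0.77 in ko, beside 0.08 and 0.09 over all genes. All 3 arrays at 4 months lay above all 3 at 1 month for 27 members in wt and 32 in ko, as for 19.3% and 30.0% of all genes, and below for 1 (Cd24a) in each, as for 14.8% and 20.4%. In all, 23 genes rose in both genotypes. Ms4a1, Spib, Bach2 and Bcl6 were called in wt only, and Pax5, Pou2f2, Cd180 and Ly86 in ko only, although the difference between the genotypes' age effects was not called for any of the 8. Cd72, Btk, Tnfrsf13b, S1pr3 and Cd24a rose in neither. Within the low set the medians were 0.60 in wt (1 array at each age) and 0.75 in ko (3 arrays against 1). Within the high set the median was 0.62 in wt (2 against 2), with 21 of 36 called. There 1058 of all 12326 genes were called higher and 984 lower. In the low set fits a group with 1 array has no spread of its own and is taken to vary like the others.

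**Figure D5:**
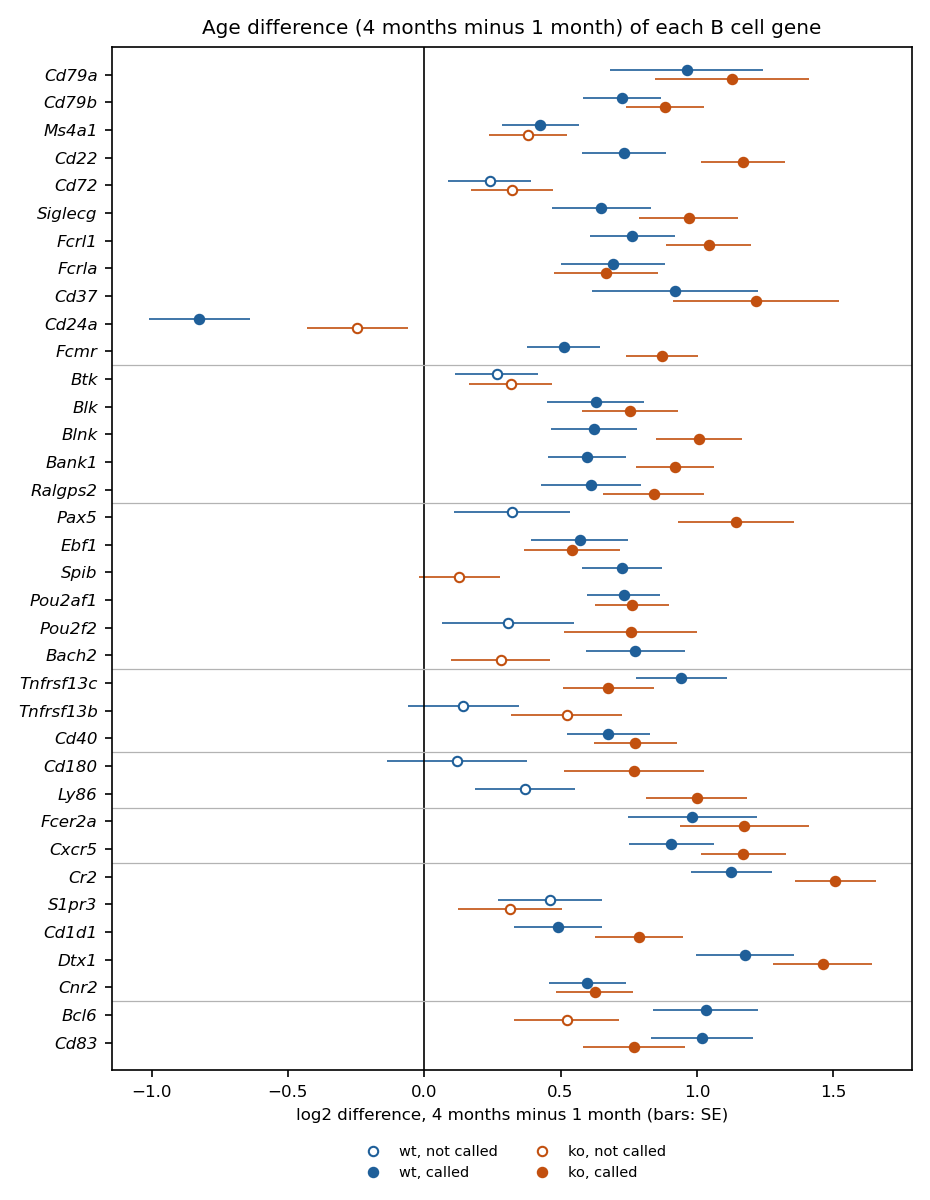
The log2 difference between 4 months and 1 month (horizontal axis, bars are SE) for each of 36 genes in wt and in ko, with filled points for called genes. In each genotype 27 genes are called higher, Cr2 and Dtx1 lie farthest right, and Cd24a is the gene called lower in wt.

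Cr2 and Dtx1 had the largest rises with age of the 36 genes in both genotypes. Cr2 rose 2.18-fold in wt, a log2 difference of 1.13 (SE 0.15, adjusted p = 6.09e-05 by limma), and 2.84-fold in ko, 1.51 (SE 0.15, adjusted p = 1.61e-05 by limma). Dtx1 rose 2.26-fold in wt, 1.18 (SE 0.18, adjusted p = 0.000269 by limma), and 2.75-fold in ko, 1.46 (SE 0.18, adjusted p = 9.62e-05 by limma). For both genes every array at 4 months was above every array at 1 month in each genotype. Among follicular genes, Fcer2a rose by 0.98 (SE 0.24) in wt and 1.17 (SE 0.24) in ko, and Cxcr5 by 0.91 (SE 0.16) and 1.17 (SE 0.16). S1pr3 was not called in either genotype, with 0.46 (SE 0.19) and 0.31 (SE 0.19). The germinal centre gene Cd83 rose by 1.02 (SE 0.19) in wt and 0.77 (SE 0.19) in ko. Bcl6 rose by 1.03 (SE 0.19) in wt and had 0.52 (SE 0.19, adjusted p = 0.0609 by limma) in ko.

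Of the 11 receptor and coreceptor genes, 9 rose in wt and 8 in ko. In wt the called rises of this group ran from 0.43 for Ms4a1 to 0.96 for Cd79a, and in ko from 0.67 for Fcrla to 1.22 for Cd37. Cd79a and Cd37 overlapped between the ages in wt, since replicate 3 at 1 month reached the lower arrays at 4 months. Cd79b rose without overlap, by 0.73 (SE 0.14) in wt and 0.88 (SE 0.14) in ko. Ms4a1 in ko had 0.38 (SE 0.14, adjusted p = 0.0641 by limma). Cd24a fell in wt, at -0.83 (SE 0.19, adjusted p = 0.00504 by limma), and had -0.25 (SE 0.19, adjusted p = 0.374 by limma) in ko. Erythroid markers were also lower at 4 months, 8 of 8 in wt (median -1.76) and 5 of 8 in ko (median -0.71), and their part in the Cd24a values was not tested.

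Spib rose by 0.73 (SE 0.15) in wt and was not called in ko, at 0.13 (SE 0.15, adjusted p = 0.578 by limma). Its difference of genotype effects, -0.60 (SE 0.21), had an unadjusted p under 0.05 and an adjusted p of 0.434 by limma. Pou2af1 rose in both, by 0.73 (SE 0.13) and 0.76 (SE 0.13). Pax5 had 0.32 (SE 0.21, adjusted p = 0.302 by limma) in wt and rose by 1.14 (SE 0.21) in ko. Tnfrsf13c rose by 0.94 (SE 0.17) in wt and 0.67 (SE 0.17) in ko, while Tnfrsf13b was called in neither. The signalling genes Blnk and Bank1 rose by 0.62 and 0.60 in wt and by 1.01 and 0.92 in ko.

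Other genes of the same pathways were counted from lists. Of 65 measured genes in the lists for receptor signalling, BAFF and CD40, follicles and marginal zone, germinal centres and B lineage factors, 35 rose and 3 fell with age in wt, and 41 rose and 2 fell in ko, where 12.6% and 15.7% of all genes rose and 11.5% and 10.9% fell. In wt the smallest p-values were those of Ezh2 (-1.10, SE 0.15), the phospholipase Plcg2 (0.77, SE 0.12), the lipid kinase subunit Pik3cd (1.16, SE 0.19), Malt1 (1.17, SE 0.19) and the inhibitory Fc receptor Fcgr2b (0.82, SE 0.14). In ko they were Fcgr2b (1.26, SE 0.14), Ezh2 (-1.30, SE 0.15), Asb2 (1.10, SE 0.14), Zfp318 (1.05, SE 0.15) and the kinase gene Fyn (0.90, SE 0.13). By genotype, 0 of 65 were called at 1 month or at 4 months by limma, and over both ages 6 were lower and 2 higher, where 2.45% of all genes were lower and 3.89% higher. Among the 6 lower were the B lineage factors Foxp1 (-0.44, SE 0.09) and Mef2c (-0.56, SE 0.15).

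Markers of other cell types were measured on the same arrays. Neutrophil markers were higher in ko, 11 of 11 at each age, with medians of 2.05 and 2.82, and fell with age, 11 of 11 in each genotype. Their summed signal was 44585 to 54851 in wt and 129383 to 160846 in ko at 1 month, and 9823 to 14794 in wt and 52544 to 70045 in ko at 4 months. Of the 11 markers, up to 4 were under 100 in a wt array at 4 months. Erythroid markers summed to 100813 to 132206 in wt and 104870 to 119326 in ko at 1 month, and 33999.6 to 60359 in wt and 76626 to 87760.2 in ko at 4 months, where 7 of 8 were called higher in ko. These lists thus ran opposite to the B cell genes by genotype and by age, except that 0 of 8 erythroid markers were called at 1 month, and their part in the B cell values was not tested.

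The median T cell marker had the same sign as the median B cell gene in each comparison. At 1 month 0 of 10 were called in ko against wt, with a median of -0.34, and at 4 months 0 of 10 with -0.17. Over both ages 1 of 10 was called lower, with a median of -0.24. With age 4 of 10 rose in wt and 9 of 10 in ko. Their summed signal was 10354 to 11951 in wt and 7215 to 9758 in ko at 1 month, and 15978 to 17884 in wt and 14419 to 16563 in ko at 4 months. Markers of follicular dendritic cells, which share Cr2 with B cells, had medians of -0.48 at 1 month and -0.39 at 4 months with 0 of 6 called at either age, and Cxcl13, Mfge8 and Clu were lower over both ages. They summed to 41068 to 46873 in wt and 23625 to 31682 in ko at 1 month, and 52457 to 61913 in wt and 43361 to 48138 in ko at 4 months. Dendritic cell markers, relevant to Spib and Cd83, had 1 of 8 called lower at 4 months, Ccr9 at -0.97 (SE 0.22), and a median of -0.13. They summed to 12233 to 13918 in wt and 11774 to 12425 in ko at that age. Among them Siglech read 326 to 331 in ko against 364 to 532 in wt at 4 months. Bst2 read 599 to 691 against 785 to 1179 and Ccr9 288 to 409 against 593 to 873, all without overlap. Zbtb46 and Irf8 also had lower ko means, and Itgax, Flt3 and Xcr1 had higher ko means. The part of the T cell, follicular dendritic and dendritic lists in the B cell values was not tested. Plasma cell markers had 0 of 8 called at either age by genotype, with medians of -0.15 and -0.06, and Mzb1, which is also in the pathway lists, was lower over both ages. Of 5 early B cell precursor genes, Rag1 was called lower at 4 months, where its ko signals of 1.45 to 20.8 lay under the offset of 32 against 40.7 to 255 in wt, so the size of its difference is not given.

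Macrophage, plasma cell and dendritic cell markers also rose with age. Of 9 macrophage markers, 6 rose in wt (median 0.54) and 9 in ko (median 1.15). By genotype their medians were -0.41 at 1 month, where Marco was called lower (-1.50), and 0.15 at 4 months, where Cd5l was called higher (0.60). They summed to 34047 to 46067 in wt and 24219 to 30227 in ko at 1 month, and 49444 to 56609 in wt and 54833 to 57277 in ko at 4 months. Of 8 plasma cell markers, 5 rose in wt (median 0.73) and 6 in ko (median 0.78). Of 8 dendritic cell markers, 4 rose in wt (median 0.67) and 6 in ko (median 0.72). The part of these lists in the B cell values was not tested.

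Among the 36 genes, 15 had further probe sets that passed the filter, 24 in all. By genotype over both ages 2 of the 24 had the opposite sign to the probe set used, and Cd37 was the one of these with a call. At 4 months 2 of 24 had the opposite sign and at 1 month 5 of 24, with 0 of these involving a call. For the genes called at 4 months, another probe set of Bach2 was also called, at -1.10 (adjusted p = 0.0304 by limma), and a dimmer one gave -0.33 (adjusted p = 0.556 by limma). The second probe set of Bcl6 gave -0.58 (adjusted p = 0.189 by limma) and those of S1pr3 gave -0.61 and -0.35 (adjusted p = 0.1 and 0.648 by limma), in the same direction and not called. For age in wt, 1 of 24 was of opposite sign beside a call, a dim probe set of Bach2 at -0.15 (adjusted p = 0.701 by limma). For Ms4a1, called over both ages at -0.49, the second probe set gave -0.20 there (adjusted p = 0.448 by limma). By age it gave -0.40 at 4 months against -0.52 for the one used, and no difference to 2 decimals at 1 month, none of them called.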

How the data were processed

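Total RNA was extracted from spleens with Trizol per the labels' protocols. Biotin-labelled material prepared from it was hybridised to 12 Affymetrix arrays, 1 mouse each, 3 mice in each of 4 groups given by the sample titles. The authors deposited a linear intensity for every probe set, computed with MAS5 per the submitters' processing notes, version not given in the sources used here. All arrays came scaled to a 2% trimmed mean of 500, which was computed again here, an offset of 32 added and log2 taken. Of 45101 probe sets, 64 controls were left out, and the 27041 with a signal of at least 100 on at least 3 arrays were tested, covering 12326 genes. In the annotation 34945 probe sets carried a single symbol, 932 more than 1, and the remaining 9160 no symbol.

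Group means were fitted over all 12 arrays with limma 3.58.1 in R 4.3.3 (lmFit and eBayes with an intensity trend, 8 residual and 8.27 prior degrees of freedom), with 6 contrasts, 2-sided tests and Benjamini-Hochberg adjustment over all probe sets tested. The fit was checked on simulated data. Errors are SE of log2 differences or SD over 3 mice, and the number of arrays limits the precision. Every member could be named. Values of every array are given for members called in any contrast, and of the other pathway genes those with the smallest p are named. The members and lists were chosen with earlier results of these data known. Scaling, offset, filter, prior, blocks, array sets, probe set choice and left-out arrays were varied.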

Additional observations from a re-analysis of the deposited data

How the results depend on the processing

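Calls are counted here over the 36 genes, and no called gene and no median over all 36 changed sign under any alternative run. Medians of single roles were compared within the array sets only. In the low set alone the sign changed for the Toll-like accessory genes at 4 months (0.09). There it also changed for the group of Tnfrsf13c, Tnfrsf13b and Cd40, for the change with age (-0.03). For the change with age, median centring shifted all genes by -0.13. This exceeds the main medians of the transcription factors (0.0014) and of that receptor group (0.099), so both turned negative. For ko against wt at 1 month (1 call), quantile normalization gave 2 and the mean over a gene's probe sets gave 4, while median centring, no filter, no intensity trend, the array set as a block, the low set alone and a fit of only the arrays compared each gave 0. At 4 months (6 calls), median centring gave 3, and no intensity trend, the low set alone and the high set alone gave 0. Over both ages (18 calls), median centring gave 9, no filter 11, no intensity trend 8 and the low set alone 0. With age in wt (28 calls), the low set alone gave 4. The high set holds no ko array at 1 month, so its other comparisons could not be fitted. Calls over all 12326 genes moved as well. Those lower over both ages were 302 in the main fit, 103 with median centring and 114 with no intensity trend. Median centring moved the medians to -0.32 at 1 month, -0.30 over both ages, 0.080 for the change of the genotype difference with age and 0.62 with age in ko. It shifted the median of all genes by 0.16, 0.09, -0.13 and -0.15 in these. Median centring moves all genes of an array alike, so the members' median relative to all genes could not change. That relative median was -0.46, -0.39, 0.17 and 0.68 either way. As each array was left out in turn, calls ran from 0 to 11 at 1 month, 0 to 9 at 4 months, 8 to 18 over both ages, 21 to 28 with age in wt and 23 to 28 in ko, and the median with age in ko from 0.73 to 0.87. Apart from the shift by median centring, the cause of these changes was not tested. The replicate number as a block gave 1, 7, 17, 0, 28 and 28 calls for the 6 contrasts, in the order 1 month, 4 months, both ages, change with age, wt and ko, and at 1 month its call was not Cr2 (adjusted p = 0.0553 by limma). Samples with the same number did not deviate together (correlations of -0.20 to 0.21 over 18 pairs, 14 under 0.1). With 3 arrays a group this check cannot exclude that the numbers pair the mice. With 3 arrays a group, precision is limited by their number, and dim genes such as Pou2f2, Cd180 and Pax5 sit closest to background.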
